A study of Mus musculus with 3 samples.

Results

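The aquaporins are membrane channels that let water, and in some members glycerol or other small solutes, cross the cell membrane along the osmotic gradient. In the kidney each member has its own stretch of the nephron. AQP1 carries constitutive water reabsorption in the proximal tubule and thin descending limb, AQP2 is the apical channel of collecting duct principal cells that vasopressin moves to the membrane, AQP3 and AQP4 let the water out on the basolateral side of the same cells, AQP6 sits in intracellular vesicles of acid-secreting intercalated cells, and AQP11 lies in the endoplasmic reticulum of the proximal tubule. The 6 genes Aqp1, Aqp2, Aqp3, Aqp4, Aqp6 and Aqp11 were taken by name from the 22535 genes of the series, and all 6 were in the tables. Another 5 genes of the family in the tables (Aqp5, Aqp7, Aqp8, Aqp9 and Mip) were counted beside them.

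The libraries came from kidneys of WT1CreERT2; Rosa26-tdTfl/+ mice, in which Cre driven from the WT1 locus turns on the red reporter tdT after tamoxifen, so that podocytes and WT1+ parietal epithelial cells (PECs) of Bowman's capsule carry it. Sham mice had sham surgery, and the other mice had severe ischemia-reperfusion injury (IRI) and were killed at 24 h. The cells came from the kidney cortex. Sham and IRI24h-TDN were mixtures of renal cells enriched for tdT+ cells, and IRI24h-TD held tdT+ cells alone, so that the share of each tubule cell type in a library was set partly by the sort. Each group was 1 library, so that no test between groups was possible and the intervals below (95%, exact Poisson for levels, exact binomial for shares and for ratios of levels) cover counting error only.

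After barcodes with under 200 genes or over 50% mitochondrial UMIs (unique molecular identifiers, the counted transcripts) were left out, 8047 Sham, 9024 IRI24h-TDN and 9689 IRI24h-TD cells remained, with a median of 7746, 9151 and 9529 UMIs. The pairs of libraries shared 82 to 96 barcodes. Cells were clustered without any aquaporin and named from other markers, as "X-like" classes. Levels are given as CPM, the UMIs of a gene per 1000000 UMIs summed over the cells of a class in a library. The aquaporin-bearing classes were proximal tubular epithelial cells (PTEC-like, 1040 Sham, 113 IRI24h-TDN and 56 IRI24h-TD cells), connecting tubule-like cells (87, 123 and 1), principal cell-like cells (99, 139 and 13), intercalated type A-like cells (117, 120 and 4) and intercalated type B-like cells (56, 201 and 6). At least 9 of 10 PTEC markers and all 7 principal cell, all 7 type A, all 7 type B and all 6 connecting tubule markers were found in 10% or more of the cells of every cluster of their class. Because the library IRI24h-TD held few tubule cells, its values stand beside the others as single readings.

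In Sham, each of the 6 genes had over 50% of its UMIs in 1 class. PTEC-like cells held 79.0% of the Aqp1 UMIs and 76.1% of the Aqp11 UMIs, principal cell-like cells held 64.0% of the Aqp2, 54.5% of the Aqp3 and 83.0% of the Aqp4 UMIs, and intercalated type A-like cells held 94.1% of the Aqp6 UMIs. In IRI24h-TDN, which had fewer PTEC-like cells, that class held 35.2% of the Aqp1 and 22.5% of the Aqp11 UMIs. The next shares of Aqp11 there were 11.2% each in distal convoluted tubule-like and connecting tubule-like cells. Principal cell-like cells and an unnamed cluster with PTEC and PEC genes held 9.38% each. The largest share of Aqp1 outside PTEC-like cells was 23.6%, in an unnamed cluster with urothelial and thin limb genes. Principal cell-like cells of IRI24h-TDN held 67.9% of the Aqp2, 40.8% of the Aqp3 and 78.5% of the Aqp4 UMIs, and type A-like cells held 86.2% of the Aqp6 UMIs. Podocyte-like cells, which should lack these channels, were taken as the background: 4.94% of 4375 Sham podocyte-like cells had an Aqp2 UMI, 2.83% an Aqp1 UMI, 1.51% an Aqp3 UMI, 1.39% an Aqp6 UMI and 0.571% an Aqp11 UMI, at a median depth of 8241 UMIs. Whether these UMIs came from free RNA, doublets or the cells themselves was not tested.

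**Figure D1:**
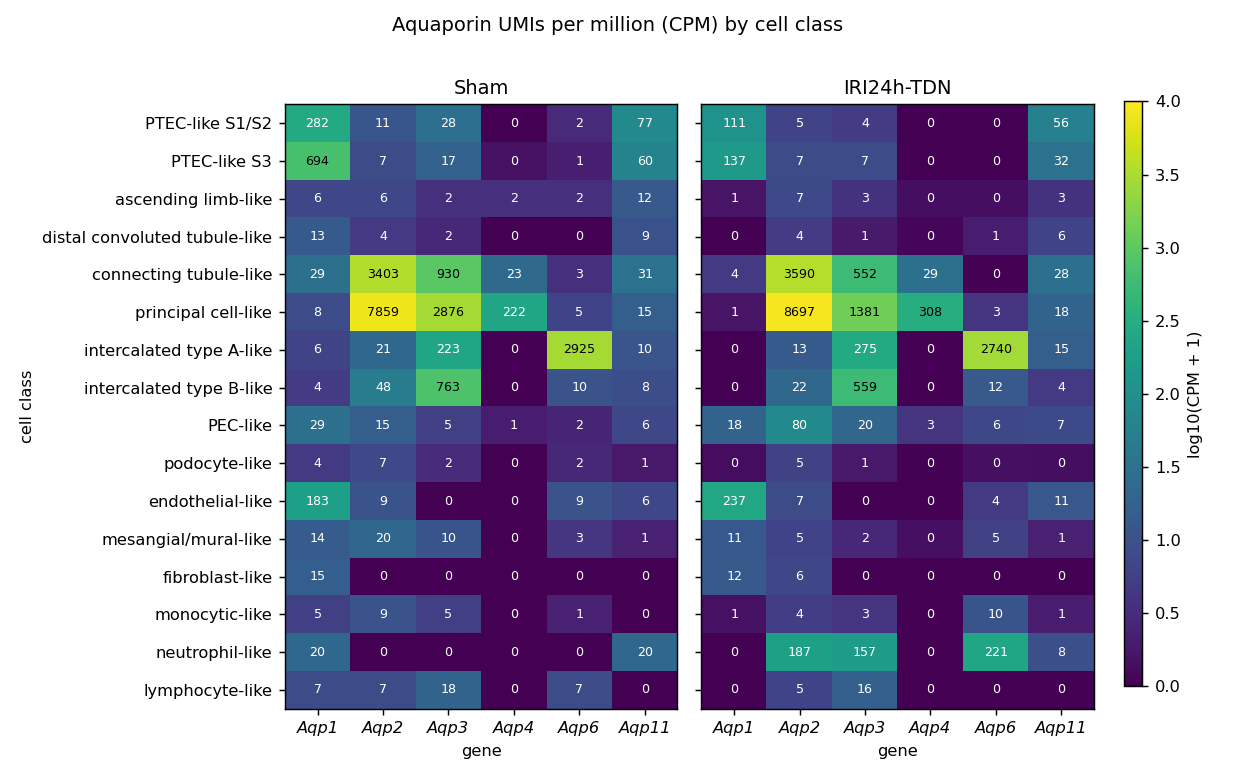
Levels of the 6 aquaporins (columns) in the named cell classes (rows) of Sham (left) and IRI24h-TDN (right), with the CPM written in each cell and the colour on a log10(CPM + 1) scale. Aqp2, Aqp3 and Aqp4 peak in the principal cell-like row, Aqp6 in the intercalated type A-like row, and Aqp1 falls from 694 to 137 CPM in the PTEC-like S3 row.

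Aqp1, the water channel of the proximal brush border and of the basolateral membrane beneath it, lies at chr6:55336432-55348555 on the plus strand (GRCm38, a protein-coding gene). In PTEC-like cells its level was 573 CPM in Sham, 126 CPM in IRI24h-TDN and 65.5 CPM in IRI24h-TD, from 4934, 215 and 34 UMIs. IRI24h-TDN lay below Sham by 2.18 on the log2 scale (4.54-fold; interval -2.39 to -1.99). In that comparison 15% of the 11136 genes tested in PTEC-like cells were lower by 2-fold or more, so that Aqp1 belonged to a sizeable minority. The share of PTEC-like cells with an Aqp1 UMI was 79.8% in Sham and 42.5% in IRI24h-TDN, although the median cell had 6926.5 UMIs in Sham and 12365 in IRI24h-TDN. With each cell thinned to 2000 UMIs, which left out 90 Sham cells and 0 IRI24h-TDN cells, the shares were 60.2% and 20.4%.

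The fall was present in both segments that the markers separated. In S3, the straight part of the tubule, Aqp1 stood at 694 CPM (interval 673 to 715) in 683 Sham cells and at 137 CPM (115 to 163) in 81 IRI24h-TDN cells, a log2 ratio of -2.34. The middle S3 cell held 6.53 Aqp1 UMIs per 10000 UMIs in Sham and none in IRI24h-TDN. In S1/S2, the convoluted part, the level was 282 CPM (262 to 304) in 357 Sham cells and 111 CPM (88.4 to 138) in 32 IRI24h-TDN cells, a log2 ratio of -1.34. In these classes 16.1% of the genes tested in S3 and 15.8% of those in S1/S2 were lower by 2-fold or more. The Sham level was thus higher in S3 than in S1/S2 beyond counting error, while the 2 IRI24h-TDN intervals overlapped.

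The mix of PTEC-like clusters differed between the libraries, so the levels were also read cluster by cluster. In cluster 25 (S3) Aqp1 stood at 650 CPM in Sham and 172 CPM in IRI24h-TDN, and in cluster 27 (S3) at 726 and 131 CPM. Cluster 36 (S3), the shallowest of these, gave 699 and 34.7 CPM. Cluster 48 (S1/S2), led by the injury gene Havcr1, gave 463 CPM in its 39 Sham cells, 114 CPM in its 30 IRI24h-TDN cells and 79.4 CPM in its 14 IRI24h-TD cells. Havcr1 was only 1.99 CPM over all S1/S2 cells of Sham, against 2033 CPM in those of IRI24h-TDN, so that the label describes the cells after IRI. Over S3 cells Havcr1 was 7.06 CPM in Sham and 2477 CPM in IRI24h-TDN. Within each of these 4 clusters IRI24h-TDN therefore lay below Sham, with log2 ratios of -1.92, -2.47, -4.33 and -2.03. Cluster 28 (S1/S2), with 264 Sham cells, held only 2 IRI24h-TDN cells. The unnamed cluster with both PTEC and PEC genes, led by Havcr1 and Krt20, had 15.5 CPM of Aqp1 in 49 IRI24h-TDN cells and 24.8 CPM in 49 IRI24h-TD cells, which is below the PTEC-like level of the same library in both cases.

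**Figure D2:**
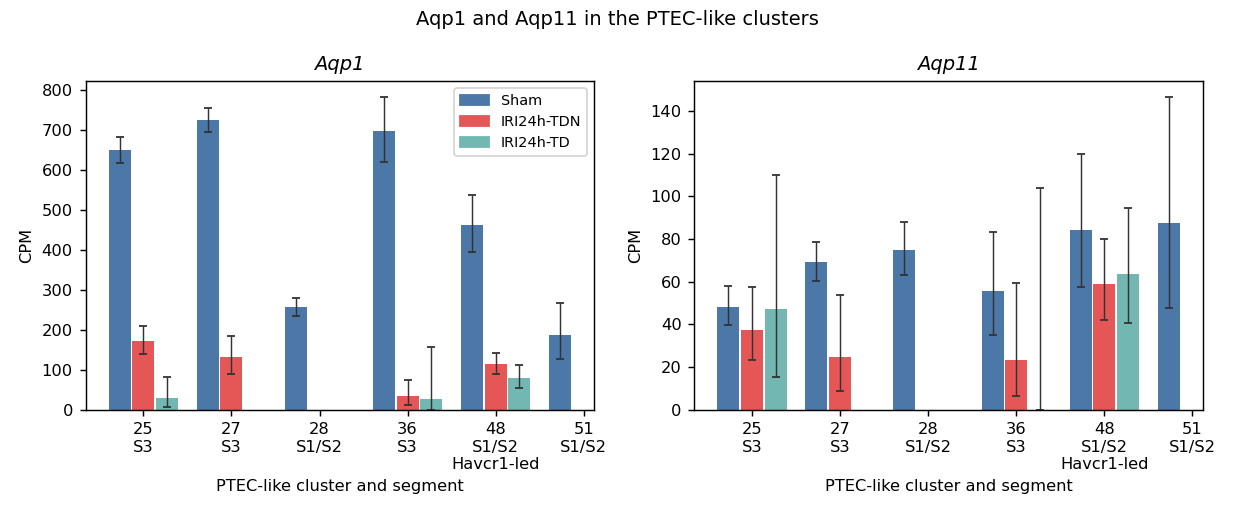
CPM of Aqp1 (left) and Aqp11 (right) in each PTEC-like cluster, by library, with 95% Poisson intervals; libraries with fewer than 5 cells in a cluster are not drawn. Aqp1 in IRI24h-TDN is between 34.7 and 172 CPM against 463 to 726 CPM in Sham in clusters 25, 27, 36 and 48, while the intervals of Aqp11 overlap in 3 of these 4.

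Other cells and RNA moved with Aqp1 in the PTEC-like class. The summed level of the 10 PTEC markers was 22359 CPM in Sham and 8078 CPM in IRI24h-TDN, that of the PEC markers was 127 and 617 CPM, that of the podocyte markers was 1064 and 682 CPM, and Havcr1 alone was 5.58 and 2287 CPM. Their part in the fall of Aqp1 was not tested. All 13 alternative settings kept Aqp1 lower by more than 2-fold, with log2 ratios between -2.74 and -2.04.

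Of the 15 genes of proximal reabsorption listed beside Aqp1, 6 were lower by 2-fold or more in IRI24h-TDN PTEC-like cells, 1 was higher and 8 were within 2-fold, where 15% of all genes tested were lower and 13.3% higher. Their median log2 ratio was -0.36, against 0.06 over the 10974 genes with UMIs in both libraries. The lower genes encode carbonic anhydrases and apical transporters: Car4 fell by 3.38, Car14 by 2.59, the phosphate transporter Slc34a3 by 2.37, the glucose transporter Slc5a1 by 2.19, the urate transporter Slc22a12 by 1.97 and the sodium-proton exchanger Slc9a3 by 1.39 on the log2 scale. Other genes of these kinds in the list, Car2, Slc6a19 and Slc26a6, were within 2-fold. Ezr, which encodes the microvillar linker ezrin, was higher by 1.29. The basolateral bicarbonate cotransporter gene Slc4a4 (log2 ratio -0.36) was within 2-fold, as was the tight junction gene Cldn2 (0.15). Read in S3 alone, 7 of 14 of these genes were lower, 3 were higher and 4 were within 2-fold, against 16.1% lower and 16.5% higher of all genes tested in S3. Aqp1 therefore stood among the lower members of a list that did not move as one. Of the 8 tubule injury genes, 7 were higher by 2-fold or more in the same cells, where 13.3% of all genes tested were, and Sox9 (log2 ratio -0.25) was not. Of 6 osmolyte and osmotic response genes tested there, 1 was lower by 2-fold or more, the heat shock gene Hspa1b (-1.06), a share near the 15% of all genes.

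Aqp11, the intracellular channel of the proximal tubule (chr7:97724006-97738289, minus strand, protein-coding), was found in the same cells at a much lower UMI count. Its level in PTEC-like cells was 65.0 CPM in Sham (559 UMIs), 42.3 CPM in IRI24h-TDN (72 UMIs) and 55.9 CPM in IRI24h-TD (29 UMIs). The log2 ratio of IRI24h-TDN to Sham was -0.62, short of 2-fold, with an interval below 0. In S1/S2 it stood at 77.0 CPM in Sham and 56.3 CPM in IRI24h-TDN, and in S3 at 31.8 CPM in IRI24h-TDN, 1.89-fold below Sham. The S1/S2 ratio (-0.45) had an interval that reached above 0, and the S3 ratio (-0.92) did not. This value moved with the setting. With every cell thinned to 2000 UMIs the PTEC-like ratio was -1.12, and without the Havcr1-led cluster it was -1.06, both past 2-fold. The thinned value rests on few UMIs, as 3.54% of the 113 IRI24h-TDN cells then had one, against 11.7% of 950 Sham cells. Among the tubule classes, connecting tubule-like cells came next with 30.6 CPM in Sham and 27.8 CPM in IRI24h-TDN, and then principal cell-like cells with 15.2 and 18.1 CPM. The Sham intervals of these last 2 classes overlapped, and neither class changed beyond counting error.

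Aqp2 (chr15:99579055-99584547, plus strand) and Aqp3 (chr4:41092722-41098183, minus strand), both protein-coding, marked the collecting duct and connecting tubule. Aqp2 lies next to Aqp5 and Aqp6 on chromosome 15, with 6234 bases between Aqp2 and Aqp5 and 6570 between Aqp5 and Aqp6, yet Aqp2 and Aqp6 were found in different cells, whereas Aqp2 and Aqp3 were found in the same cells from different chromosomes. The promoters of these 3 genes (RefSeq, GRCm38.p6, from 250 bases before to 50 after the RefSeq start) are shown for that reason, with capitals for the letters of 3 motifs searched on both strands: TATAAA, known as the core promoter box of that name, GACGTCA, the core of a cAMP response element, and AGATAA, which factors of the GATA family are known to bind. They are chr15:99578806-99579105 on the plus strand for Aqp2, chr4:41098134-41098433 on the minus strand for Aqp3 and chr15:99600950-99601249 on the plus strand for Aqp6.
Aqp2: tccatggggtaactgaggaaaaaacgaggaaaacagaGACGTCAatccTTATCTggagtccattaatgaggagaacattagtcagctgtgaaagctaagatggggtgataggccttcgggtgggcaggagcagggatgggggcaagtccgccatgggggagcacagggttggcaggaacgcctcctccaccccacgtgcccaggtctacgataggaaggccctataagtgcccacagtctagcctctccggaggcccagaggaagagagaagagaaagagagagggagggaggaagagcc
Aqp3: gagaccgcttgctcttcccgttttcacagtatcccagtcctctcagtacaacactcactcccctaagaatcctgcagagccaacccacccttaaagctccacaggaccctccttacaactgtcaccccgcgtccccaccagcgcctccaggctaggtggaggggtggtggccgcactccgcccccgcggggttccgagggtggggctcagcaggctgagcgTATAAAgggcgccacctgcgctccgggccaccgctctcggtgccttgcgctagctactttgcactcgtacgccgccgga
Aqp6: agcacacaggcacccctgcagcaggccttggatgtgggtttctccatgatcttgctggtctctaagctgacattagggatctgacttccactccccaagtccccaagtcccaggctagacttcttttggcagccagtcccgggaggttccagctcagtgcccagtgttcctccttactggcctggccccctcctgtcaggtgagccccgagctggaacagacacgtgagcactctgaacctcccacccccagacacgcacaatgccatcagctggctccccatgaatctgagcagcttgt

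In the Aqp2 window GACGTCA began at position -213 and AGATAA, on the other strand, at -202, and in the Aqp3 window TATAAA began at -29. None of the 3 motifs was in the Aqp6 window. That window ends at 99601249, before the GENCODE start of Aqp6 at 99601400, whereas the Aqp2 and Aqp3 windows span their GENCODE starts. Of 32851 mouse promoter windows of this length, 3.21% held GACGTCA, 11.2% AGATAA and 13.6% TATAAA. A match describes the letters and does not show a working site.

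Aqp2 was highest in principal cell-like cells in all 3 libraries: 7859 CPM in Sham, 8697 CPM in IRI24h-TDN and 6195 CPM in IRI24h-TD, with a UMI in 98 of 99, 139 of 139 and 13 of 13 cells. The log2 ratio of IRI24h-TDN to Sham was 0.15 (interval 0.11 to 0.19), well within 2-fold. Middle cells were alike, with 72.6 Aqp2 UMIs per 10000 in Sham (quartiles 52.7 and 91.4) and 70.8 in IRI24h-TDN (46.0 and 113). Connecting tubule-like cells had 3403 CPM in Sham and 3590 CPM in IRI24h-TDN, and the unnamed cluster with both principal cell and connecting tubule genes had 3528 and 2676 CPM. In Sham the intervals of these 2 overlapped, and both lay below that of principal cell-like cells. The connecting tubule ratio (0.08) was -0.88 when each cell's class was taken from its own markers alone. The intercalated type A-like (21.5 CPM) and type B-like cells (47.9 CPM) of Sham had an Aqp2 UMI in 6.84% and 8.93% of cells, near the 4.94% of podocyte-like cells.

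Aqp3, the basolateral water and glycerol channel, did not follow Aqp2. In principal cell-like cells it was 2876 CPM in Sham (2650 UMIs), 1381 CPM in IRI24h-TDN (2295 UMIs) and 1706 CPM in IRI24h-TD (357 UMIs). IRI24h-TDN was lower by 2.08-fold, a log2 ratio of -1.06 with an interval of -1.14 to -0.98, in a comparison where 9.47% of 8982 genes were lower by 2-fold or more. The middle cell fell from 27.8 to 12.5 Aqp3 UMIs per 10000, and the upper quartile of IRI24h-TDN (19.1) lay below the lower quartile of Sham. Almost every cell still had the transcript, in 98 of 99 and 137 of 139 cells. The value sits at the 2-fold line: TMM scaling gave -0.95 and median-of-ratios scaling -0.94, with a shift of the whole class of -0.11 between CPM and either scaling, and the other 9 alternatives gave values past 2-fold.

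A ratio within a library needs no scaling. In principal cell-like cells there were 0.366 Aqp3 UMIs per Aqp2 UMI in Sham (interval 0.350 to 0.383), 0.159 in IRI24h-TDN (0.152 to 0.166) and 0.275 in IRI24h-TD (0.244 to 0.310). Connecting tubule-like cells had 0.273 in Sham and 0.154 in IRI24h-TDN, and the unnamed cluster with genes of both had 0.357 and 0.152. In each of these 3 groups of cells the Sham and IRI24h-TDN intervals were apart. In IRI24h-TD the principal cell-like value lay between them.

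**Figure D3:**
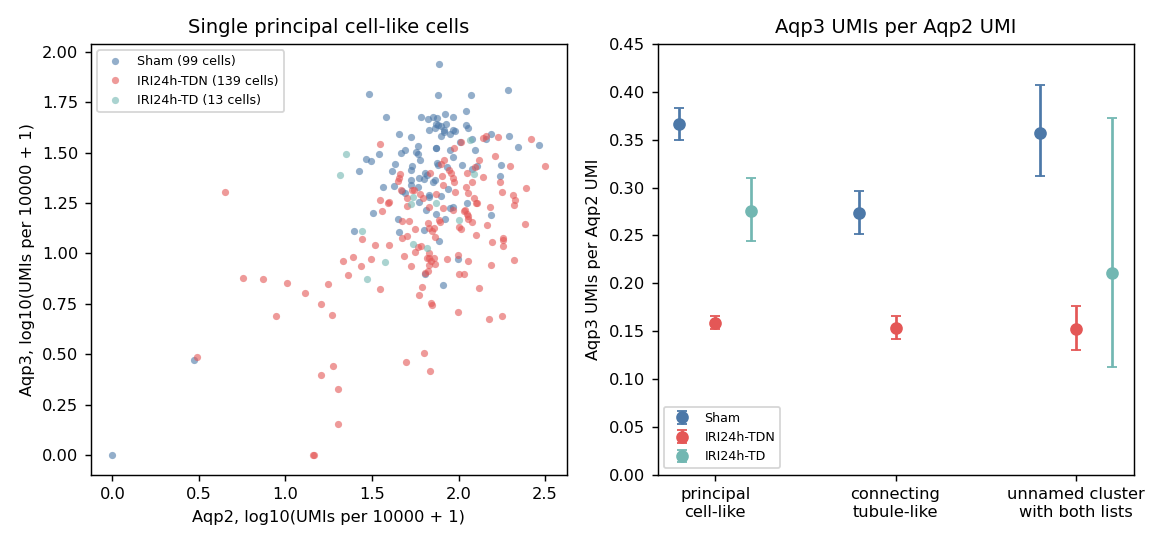
Left, Aqp2 and Aqp3 UMIs per 10000 UMIs in each principal cell-like cell, on log10(value + 1) axes, coloured by library. Right, Aqp3 UMIs per Aqp2 UMI with 95% intervals in the 3 groups of cells that carry both, where Sham lies between 0.273 and 0.366 and IRI24h-TDN between 0.152 and 0.159.

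Across the other Aqp3-bearing cells the change was uneven. In connecting tubule-like cells Aqp3 was 930 CPM in Sham and 552 CPM in IRI24h-TDN, a log2 ratio of -0.75 (interval -0.90 to -0.60), in a class where 7.93% of genes were lower by 2-fold or more. Taking each cell's class from its own markers alone made this ratio -1.34. In this class the summed level of the connecting tubule markers was 52371 CPM in Sham and 17571 CPM in IRI24h-TDN. That of the principal cell markers was 10073 and 5583 CPM, and that of the PTEC markers 890 and 48.6 CPM. The part of these marker shifts in the Aqp3 ratio was not tested. In the unnamed cluster with both lists Aqp3 was 1259 and 407 CPM, a ratio of -1.63. Intercalated type B-like cells, which secrete bicarbonate, carried Aqp3 at 763 CPM in Sham, 559 CPM in IRI24h-TDN and 668 CPM in IRI24h-TD, a ratio of IRI24h-TDN to Sham of -0.45 where 6.39% of genes were lower by 2-fold. Intercalated type A-like cells, which secrete acid, had 223 CPM in Sham and 275 CPM in IRI24h-TDN, a ratio of 0.30 (interval 0.07 to 0.54). The order of the Sham levels was principal cell-like, the unnamed cluster, connecting tubule-like, type B-like and type A-like cells, each pair of neighbours with intervals apart. In IRI24h-TDN the connecting tubule-like and type B-like intervals overlapped.

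The Aqp3 UMIs of intercalated cells were above the background level of podocyte-like cells. A UMI was found in 85.7% of Sham type B-like and 71.8% of Sham type A-like cells against 1.51% of podocyte-like cells, at medians of 12062, 10174 and 8241 UMIs per cell. After thinning to 2000 UMIs the shares were 67.3%, 33.3% and 0.443%. The same type B-like cells held 15.9 Aqp3 UMIs per Aqp2 UMI, against 0.366 in principal cell-like cells of that library. PTEC-like cells of Sham had an Aqp3 UMI in 10.8% of cells and 4.11% after thinning, at 20.5 CPM, and in IRI24h-TDN 5.87 CPM. Their Aqp2 share in Sham was 5.77%, close to that of podocyte-like cells.

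Markers moved with Aqp3 in principal cell-like cells. The summed level of the principal cell markers was 10598 CPM in Sham and 6575 CPM in IRI24h-TDN, that of the podocyte markers (10 of 10 with UMIs in both) 2833 and 1196 CPM, and that of the PTEC markers 395 and 6.62 CPM (9 and 6 of 10 with UMIs). The median depth was 9023 and 11493 UMIs per cell, and the top 6% of doublet scores held 2 and 0 cells. Their part in the lower Aqp3 was not tested.

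Aqp4, the other basolateral water channel, was concentrated in principal cell-like cells: 222 CPM in Sham (205 UMIs), 308 CPM in IRI24h-TDN (512 UMIs) and 268 CPM in IRI24h-TD (56 UMIs). The log2 ratio of IRI24h-TDN to Sham was 0.47 (interval 0.23 to 0.71), and 0.19 when every cell counted alike. Connecting tubule-like cells had 22.9 and 28.6 CPM, and the unnamed cluster with both lists 37.8 CPM from 9 UMIs in Sham and 169 CPM from 85 UMIs in IRI24h-TDN. A UMI of Aqp4 was in 40 of the 99 principal cell-like cells from Sham, in 62 of 139 from IRI24h-TDN and in 5 of 13 from IRI24h-TD. It was uneven among them, with 72.2% of the Sham UMIs in the 13 cells that held at least 5, and 85.4% of the IRI24h-TDN UMIs in 26 such cells. Of the Aqp4-positive cells, 39 of 40 in Sham and 62 of 62 in IRI24h-TDN also held Aqp2 and Aqp3.

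Principal cell-like cells with an Aqp4 UMI had more Aqp2 than those without. The levels were 9713 against 6671 CPM in Sham, 10618 against 6880 CPM in IRI24h-TDN and 8542 against 3732 CPM in IRI24h-TD. Aqp3 stood at 2755 against 2954 CPM in Sham, 1537 against 1234 CPM in IRI24h-TDN, and 2035 against 1361 CPM in IRI24h-TD, so that its order differed between the libraries. Median depths of cells with and without Aqp4 were 8750 and 9056 UMIs in Sham, 12667 and 10115 in IRI24h-TDN and 19677 and 12289 in IRI24h-TD. In connecting tubule-like cells the order of Aqp2 was not the same in both libraries, with 2469 CPM in the 5 Sham cells with an Aqp4 UMI against 3476 CPM in those without, and 9971 CPM in 6 IRI24h-TDN cells against 3258 CPM. Cells of 1 library are not replicates, and this split was not tested.

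Of the 27 genes of vasopressin signalling and AQP2 trafficking, 21 had enough UMIs in principal cell-like cells. There 3 were higher in IRI24h-TDN by 2-fold or more, 1 was lower and 17 were within 2-fold. Of all genes tested there, 9.12% were higher and 9.47% lower. The median log2 ratio of the list was 0.01 against -0.06 over all genes. The higher genes of the list were Ptger4, a prostaglandin E2 receptor (3.48-fold), Rab11a, a GTPase of recycling endosomes (3.37-fold), and Stx3, an apical membrane SNARE (3.29-fold). The lower gene was the cAMP phosphodiesterase Pde4a (log2 ratio -1.55), from 21 UMIs in all. Rab11a and Ptger4 were also the 2 genes past 2-fold of 19 tested in connecting tubule-like cells (log2 ratios 1.60 and 1.83), a share near the 9.86% of all genes higher there. The members with the most UMIs, the apical sorting protein Mal (-0.41) and the protein kinase A subunit Prkar1a (-0.58), were within 2-fold. Avpr2, the vasopressin receptor, had 2 UMIs in Sham and 2 in IRI24h-TDN principal cell-like cells, so that no difference was detectable at this depth.

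Among 9 of 11 transcription factors tied to principal cells that had enough UMIs, 2 were lower by 2-fold or more, 7 were within 2-fold and 0 were higher, with a median log2 ratio of -0.78 against -0.06 over all genes, of which 9.47% were lower and 9.12% higher. The lower ones were Nr3c2, the mineralocorticoid receptor (-1.32), and Tfcp2l1 (-1.04). Gata2 (-0.87) and Elf3 (0.22) were within it. Of the 8 genes of osmolytes and the osmotic response, 6 could be compared and 6 were within 2-fold, among them Hspa1b (-0.34), Slc38a2 (0.58) and the taurine transporter Slc6a6 (-0.57). All 5 injury genes with enough UMIs were higher in the same cells, where 9.12% of all genes were (S100a6 and Sox9 from 3 and 1 Sham UMIs), among them Lcn2 (4.52), Spp1 (4.33) and Krt18 (1.45).

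Aqp6, the vesicular channel of acid-secreting cells (chr15:99601400-99605477, plus strand, protein-coding), stood at 2925 CPM in Sham (3677 UMIs), 2740 CPM in IRI24h-TDN (3430 UMIs) and 1993 CPM in the 4 IRI24h-TD cells (96 UMIs) of the intercalated type A-like class. The log2 ratio of IRI24h-TDN to Sham was -0.09 (interval -0.16 to -0.03), while 6.98% of the genes of this class were lower by 2-fold or more. The middle cell held 27.3 UMIs per 10000 in Sham and 27.2 in IRI24h-TDN. All 117 Sham cells and 115 of 120 IRI24h-TDN cells had the transcript. Type B-like cells had 9.58 CPM in Sham and 11.9 CPM in IRI24h-TDN, and the unnamed cluster with podocyte and intercalated type A genes had 1098 and 915 CPM. Aqp6, which had no part in naming the cells, was thus high in type A-like and low in type B-like cells of both libraries in these classes. With at most 20% mitochondrial UMIs per cell no type A-like class was named, and the class named type B-like then had the highest Aqp6 level, 1272 CPM in Sham and 545 CPM in IRI24h-TDN.

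**Figure D4:**
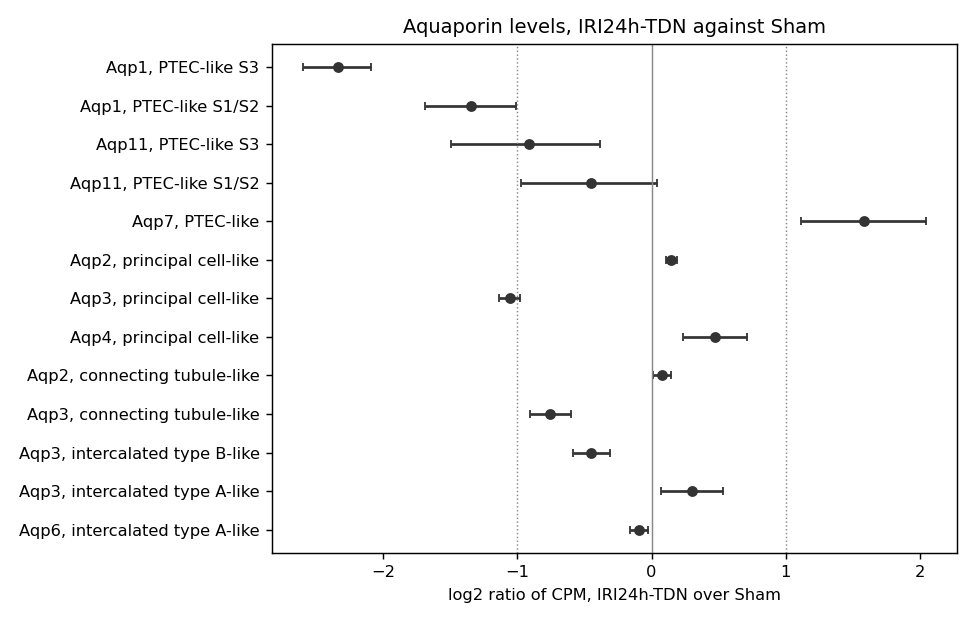
Log2 ratio of CPM, IRI24h-TDN over Sham (horizontal axis), of the members and Aqp7 in the classes that hold them, with 95% counting intervals; dotted lines mark 2-fold. Aqp1 lies at -2.34 and -1.34 and Aqp3 of principal cell-like cells at -1.06, while Aqp2, Aqp4 and Aqp6 lie between -0.09 and 0.47.

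Outside PTEC-like cells, Aqp1 UMIs were spread over many cells in the PEC-like class of Sham and lay mostly in a few cells in 3 other groups of cells. PEC-like cells had 29.1 CPM in Sham (200 UMIs), 18.0 CPM in IRI24h-TDN (53 UMIs) and 13.8 CPM in IRI24h-TD (51 UMIs). In Sham 86 of 762 PEC-like cells had a UMI, 11.3% against 2.83% of podocyte-like cells at medians of 7409.5 and 8241 UMIs per cell, and the 9 cells with at least 5 UMIs held 29.0% of them. After thinning to 2000 UMIs the shares were 3.83% and 0.817%. In IRI24h-TDN 14 of 240 PEC-like cells had a UMI, and 4 of them held 64.2%. The unnamed cluster with podocyte and PTEC genes had a UMI in 35 of 72 Sham cells, 148 UMIs in all. In the unnamed cluster with urothelial and thin limb genes, 4 of 25 Sham cells held 99.7% of 346 Aqp1 UMIs and 2 of 30 IRI24h-TDN cells held 100% of 144. Of the thin limb markers, Bst1 and Cryab were found in 6 of these 6 cells and Fst in 4, against 23, 36 and 4 of the other 49 cells, whereas Epha7 and Sptssb were found in 0 of the 6 and in 9 and 10 of the 49. The 5 urothelial markers were found in 0 of the 6 and each in 2 to 6 of the 49. Under 4 of the alternatives a thin limb-like class could be named, and there Aqp1 was the highest of any class in Sham, between 976 and 3064 CPM. In endothelial-like cells 2 of 128 Sham and 7 of 67 IRI24h-TDN cells had an Aqp1 UMI, at class levels of 183 and 237 CPM. Of the 58 Sham UMIs 98.3% were in 1 cell, and of the 64 IRI24h-TDN UMIs 89.1% were in 4 cells. The endothelial-like level of Sham depended on the class assignment. It was 512 CPM at resolution 1.5, 791 CPM at resolution 5 and 799 CPM with each cell's class from its own markers. In these settings IRI24h-TDN stood at 206, 197 and 253 CPM. With at most 20% mitochondrial UMIs, the highest class after PTEC-like was PEC-like, at 47.1 CPM in Sham. The unnamed cluster with podocyte and endothelial genes gave 308 UMIs in 12 of 75 Sham cells, of which 4 held 96.1%. Of the 8 cells of this cluster with 5 or more Aqp1 UMIs in Sham and IRI24h-TDN, 8 had the endothelial marker Cdh5 and 7 had Egfl7, against 78 and 78 of the other 103. The other 7 endothelial markers were found in a smaller share of the 8 than of the 103, among them Pecam1 (7 and 98), Flt1 (6 and 95), Kdr (4 and 73) and Plvap (2 and 38). The podocyte gene Nphs1 was in 2 of the 8 and 46 of the 103.

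Over 57 sums of a class and library with at least 20 cells, the genes most like each member, out of 15563, were ranked by Pearson's r of log2(CPM + 1), as a description over points that share libraries. Kcne1, Hsd11b2, Scnn1g, Fxyd4, Elf5 and Dmrt2 were also markers used to name the classes, so that their likeness is not independent of the naming. For Aqp2 these were Kcne1 (0.91), Hsd11b2 (0.89), Scnn1g (0.88), Spink12 (0.84) and Fxyd4 (0.84), and for Aqp4 Kcnh5 (0.93), Spock3 (0.93), Spink12 (0.89), Elf5 (0.89) and Adh6a (0.86). Aqp3 was most like Slc9a4 (0.90), Spink8 (0.89), Rhbg (0.89), Pde1c (0.88) and Scnn1g (0.87). Aqp6 was most like 2610016A17Rik (0.86), Dmrt2 (0.81), Muc20 (0.80), Cpsf4l (0.79) and 4930563D23Rik (0.78). Those most like Aqp11 included Pdzk1ip1 (0.78), Dcbld1 (0.76), Slc22a18 (0.75) and Abca3 (0.75). Aqp1 had the weakest likeness, to Lama3 (0.77), Cyp4b1 (0.75), Fgfr3 (0.74), Lurap1l (0.73) and Calml4 (0.72). Among the members, r was 0.81 between Aqp2 and Aqp3, 0.80 between Aqp2 and Aqp4, 0.39 between Aqp1 and Aqp11, and 0.23 between the chromosome neighbours Aqp2 and Aqp6.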

How the data were processed

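Single-cell suspensions of mouse kidney were sequenced on the BD Rhapsody platform, as 1 library each of Sham, IRI24h-TDN and IRI24h-TD. The authors deposited raw UMI counts per gene and barcode (whole numbers, not normalized), with a file per library that pairs each cell index with its barcode, per the file headers. The aligner and annotation are not given in the sources used here. The submitters' processing notes name CASAVA 1.8, UMI-tools, Seurat and build mm10 without saying which step used which. Barcodes with at least 200 genes and at most 50% mitochondrial UMIs were kept (26760 of 30008, libraries of 69980443 to 93470709 UMIs). The Sham and IRI24h-TDN tables had the same number of barcodes (10062) and genes (20800).

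On scaled log counts, 2000 variable genes (no aquaporin, no gene of the lists, no mitochondrial, ribosomal or haemoglobin gene) gave 30 components, corrected between libraries by the Harmony procedure (theta 2, in numpy 2.4.6), and cells were clustered on 15 neighbours with leidenalg 0.10.2 (igraph 0.11.9) at resolution 3 into 57 clusters. A cluster was named from marker lists when at least 3 markers were each in 10% of its cells and no other list scored within 0.10 or made it a mixture. A list within 0.10 was passed over when the best list had at least 2 more markers among the 10 leading genes. A distal convoluted tubule-like cluster (score 0.77, connecting tubule 0.69) was named in this way. The type A and type B lists, which share markers, were not set against each other. Clusters left unnamed held 1374 cells. No doublets were removed in the main analysis. UMIs were summed per class and library. Genes with at least 20 UMIs in Sham and IRI24h-TDN together were compared, and a ratio of 2 or more either way was called. With 1 library per group no p-value was computed. Code was tested on simulated data. Python 3.11.15, scipy 1.17.1 and edgeR 4.0.16 (TMM factors, R 4.3.3) were used, with GENCODE M21 positions and RefSeq promoters (GRCm38, the same assembly as mm10). The named genes are the 6 members, other aquaporins, and, of each list, the genes with most UMIs and those past 2-fold with the largest ratio, plus the 5 genes most alike each member; genes used to describe cells rich in Aqp1 were chosen after their values were seen. The members and gene lists were chosen with earlier results of these data known. Alternatives changed the cell filters, doublets, resolution, library correction, class assignment, depth and scaling. Some genes that the rule for named genes would print are not reported here.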

Additional observations from a re-analysis of the deposited data

Results flagged for a closer look

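Aqp2 moved in opposite directions in 2 classes in which it is not at home, each past 2-fold and with a counting interval apart from 0. In PEC-like cells it was higher in IRI24h-TDN than in Sham (log2 ratio 2.42), with 7 of 240 IRI24h-TDN cells holding 91.9% of its 236 UMIs. In intercalated type B-like cells it was lower (log2 ratio -1.15), with 1 cell holding 82.9% of the 35 Sham UMIs. The difference between the classes was not tested.

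Barcodes left out by the filters, which entered no comparison, still held UMIs of the members. Over the 3 libraries the 3248 such barcodes gave 354 UMIs of Aqp1, 432 of Aqp2, 130 of Aqp3, 1 of Aqp4, 180 of Aqp6 and 32 of Aqp11. Of the Aqp1 UMIs, 323 were in the Sham library.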

How the results depend on the processing

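With 1 library per group, no spread between animals could be measured, and each ratio compares 2 libraries. No paired analysis was possible because each group had 1 library. Aqp1 kept its 2-fold lower level in PTEC-like cells in 13 of 13 alternatives, Aqp3 in principal cell-like cells in 9 of 11, and Aqp11 in PTEC-like cells passed 2-fold in 2 of 13. No call changed direction, although the small ratios of Aqp2 in connecting tubule-like cells and Aqp6 in type A-like cells took either sign, and the causes of the moves below were not tested. Scaling by TMM or the median of ratios shifted PTEC-like cells by 0.16 and 0.13 and principal cell-like cells by -0.11 and -0.11 on the log2 scale. Where 2 levels stand together they are Sham and then IRI24h-TDN. With at most 20% mitochondrial UMIs, Aqp1 in PTECs was 597 and 108 CPM, log2 ratio -2.46, Aqp2 in principal cells was 8148 and 8972 CPM, Aqp3 in connecting tubule was 1107 CPM in Sham, log2 ratio -0.999 and Aqp3 in type B cells was 608 and 505 CPM, log2 ratio -0.27. Without the top 6% of doublet scores, Aqp1 in PTECs was 607 CPM in Sham and Aqp2 in connecting tubule was 3399 CPM in IRI24h-TDN, log2 ratio -0.015. With each cell's class from its own markers, Aqp1 in PTECs was 544 CPM in Sham, Aqp2 in principal cells was 7567 and 8034 CPM, log2 ratio 0.086, Aqp2 in connecting tubule was 2960 and 1613 CPM, log2 ratio -0.88, Aqp3 in principal cells was 2726 and 1220 CPM, log2 ratio -1.16, Aqp3 in connecting tubule was 836 and 331 CPM, log2 ratio -1.34, Aqp4 in principal cells was 261 CPM in IRI24h-TDN and Aqp6 in type A cells was 2581 CPM in IRI24h-TDN, log2 ratio -0.17. Without correction between libraries, Aqp1 in PTECs was 83.7 CPM in IRI24h-TDN, log2 ratio -2.74, Aqp2 in principal cells was 5951 CPM in IRI24h-TDN, Aqp3 in principal cells was 940 CPM in IRI24h-TDN, Aqp4 in principal cells was 184 CPM in IRI24h-TDN and Aqp6 in type A cells was 2766 and 2365 CPM, log2 ratio -0.23. With the higher minimum of genes per cell, Aqp2 in principal cells was 7532 and 7984 CPM, log2 ratio 0.084, Aqp2 in connecting tubule was 3383 CPM in IRI24h-TDN, log2 ratio -0.015, Aqp3 in principal cells was 2757 and 1285 CPM, Aqp3 in connecting tubule was 507 CPM in IRI24h-TDN, log2 ratio -0.94 and Aqp6 in type A cells was 2805 and 2367 CPM, log2 ratio -0.25. With TMM scaling, Aqp2 in principal cells was at a log2 ratio 0.26 and Aqp3 in principal cells was at a log2 ratio -0.95. With median-of-ratios scaling, Aqp2 in principal cells was at a log2 ratio 0.26 and Aqp3 in principal cells was at a log2 ratio -0.94. With principal cell-like, connecting tubule-like and the unnamed cells merged, Aqp2 in principal cells was at a log2 ratio 0.096. With cells thinned to 2000 UMIs, Aqp2 in connecting tubule was 3626 and 3785 CPM, Aqp3 in principal cells was at a log2 ratio -1.14, Aqp3 in connecting tubule was 610 CPM in IRI24h-TDN, Aqp3 in type B cells was 517 CPM in IRI24h-TDN, log2 ratio -0.62, Aqp4 in principal cells was 177 and 263 CPM, Aqp6 in type A cells was 2741 and 2858 CPM, log2 ratio 0.060 and Aqp11 in PTECs was 31.0 CPM in IRI24h-TDN, log2 ratio -1.12. With every cell counted alike, Aqp4 in principal cells was at a log2 ratio 0.19 and Aqp6 in type A cells was at a log2 ratio 0.022. At resolution 1.5, Aqp6 in type A cells was 2794 and 2333 CPM, log2 ratio -0.26. Without the Havcr1-led cluster, Aqp11 in PTECs was at a log2 ratio -1.06. Against 3153 in PTECs, 1670 in principal cells, 1485 in connecting tubule, 1310 in type A cells and 1707 in type B cells, a minimum of 100 UMIs gave counts of genes past 2-fold of 1801 in PTECs, 640 in principal cells, 425 in connecting tubule, 388 in type A cells, 615 in type B cells. Without a filter on low counts they were 2888 in principal cells, 2769 in connecting tubule, 2485 in type A cells, 2713 in type B cells. Each filter also changed the number of genes tested, so that these counts cannot be read as shares. At resolution 1.5 no principal cell-like or connecting tubule-like class was left to read, without correction 2 Sham principal cell-like and 0 connecting tubule-like cells were, and with at most 20% mitochondrial UMIs no type A-like class was, so those values were not run. The merged cells, the mean over cells and the class without the Havcr1-led cluster were chosen after seeing the data. A gene with a few UMIs in a class, such as Aqp11 or Aqp4 outside principal cells, is limited by depth.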

Other observations

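Other aquaporins were seen at low UMI counts. Aqp7, which carries glycerol as well as water, was 12.3 CPM in Sham PTEC-like cells (106 UMIs) and 37.0 CPM in IRI24h-TDN (63 UMIs), with 13 UMIs in IRI24h-TD. The log2 ratio of IRI24h-TDN to Sham was 1.59 (interval 1.11 to 2.05), opposite in sign to those of Aqp1 and Aqp11 in the same cells. It was 1.66 in S3 and 1.30 in S1/S2. Aqp9, a channel that also carries glycerol, was found in monocytic-like cells at 3.37 CPM (5 UMIs) in Sham and 8.64 CPM (50 UMIs) in IRI24h-TDN, and in 4 of 21 Sham and 6 of 31 IRI24h-TDN neutrophil-like cells. Aqp5, between Aqp2 and Aqp6 on the chromosome, was found mainly in intercalated type A-like cells, with 13 UMIs in 8 of 117 Sham cells and 9 UMIs in 7 of 120 IRI24h-TDN cells. Aqp8 had 17 UMIs in all Sham cells and 5 in all IRI24h-TDN cells.

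Of 31 neutrophil-like cells in IRI24h-TDN, 3 had an Aqp2 UMI, 3 an Aqp3 UMI and 3 an Aqp6 UMI, from 44, 37 and 52 UMIs. For Aqp2, 1 cell with 20846 UMIs held 95.5% of them, and for Aqp6, 2 cells held 98.1%. The 3 cells with Aqp3 had a median of 15448 UMIs, against 7062 over the class in that library.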
